A study of Mus musculus with 44 samples.

Results

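Genes that fold proteins in the endoplasmic reticulum (ER), or that make up and report the unfolded protein response, were followed in mammary fibroblasts with and without a tumor. The set held 32 genes, found by their symbols among the 55486 genes with an identifier in the count table. All 32 passed the filter on low counts and were among the 16601 genes tested. The symbol Ddit3 stood on a second row (chr10:127290829-127293753) inside the first, and that row held 0 counts in every library.

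The mice were En1-Cre;mTmG recipients, from En1-Cre mice crossed with mTmG reporter mice of FVB/n background, in which cells of the En1 lineage carry GFP and other cells carry tdTomato. All received mammary tissue fragments from donors aged 4 to 6 weeks in fat pads that were not cleared, and the hosts carried none of the tumor alleles. Control donors gave non-tumor tissue, WB1P donors were WapCre;Brca1F/F;Trp53F/F, and WB1P-Myc donors carried Col1a1invCAG-Myc-IRES-Luc in addition, with WapCre acting in the mammary epithelium. For control transplants into these hosts the paper names WapCre-negative Cdh1F/F;PtenF/F donors. The labels do not give the genotype of the control donors. The control mice are named wildtype in the titles and control transplanted under treatment, with the same host genotype as the others, and the age of the hosts at harvest was not given in the sources used here. Normal fibroblasts (NFs) and cancer-associated fibroblasts (CAFs) were sorted as EpCAM-/CD49f-/CD31-/CD45- cells and split by the surface protein CD26 and by GFP. The table covered 44 libraries of 13 mice, with each control label, a pair of numbers, taken as 1 mouse. The mice are numbered 1 to 3 (control), 4 to 8 (WB1P) and 9 to 13 (WB1P-Myc). Counts of the GFP+ and GFP- libraries of a mouse were summed within each CD26 class, which gave 25 sums. Some sums held a single library. These were the CD26- sums of mice 4 (GFP+), 9 (GFP-) and 11 (GFP-). The CD26+ sums of mice 6, 10 and 11 were single GFP+ libraries. There were 3 sums in each class of NFs, 5 and 4 in WB1P CD26- and CD26+ CAFs and 5 in each class of WB1P-Myc CAFs. Mouse 4 gave no CD26+ library, and 8x8 stands in the labels of 2 mice with WB1P-Myc tumors. The labels do not explain it, and the paper's methods call tumors of 8 x 8 mm advanced. The paper describes these CAFs as taken from end-stage tumors, of 4 mice for WB1P-Myc, whereas the labels hold 5. The WB1P-Myc group may thus mix stages.

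Proteins bound for the ER membrane, the cell surface or the matrix enter the ER through the Sec61 channel, where chaperones of the Hsp70 and Hsp90 classes, lectin chaperones and disulfide isomerases fold them. When unfolded protein builds up, the sensors IRE1 (gene Ern1), PERK (Eif2ak3) and ATF6 act through the factors XBP1, ATF4 and cleaved ATF6. These factors raise chaperones and send misfolded protein to the proteasome by ER-associated degradation. PERK itself lowers translation by acting on the initiation factor eIF2. Fibroblasts secrete large amounts of collagen and other matrix proteins and depend on this machinery. XBP1 is switched on by splicing of its mRNA, and ATF6 and PERK by changes to the proteins, none of which a count of reads per gene can show.

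Some promoters of these genes carry short elements known from the response, which are shown here for orientation. The RefSeq windows (build GRCm38.p6, 250 bases before to 50 after the start) held 27 of the 32 members, and Hyou1, Manf, Atf6, Derl1 and Sec61a1 had no window. The ER stress response element, searched on both strands as CCAAT, any 9 bases, then CCACG, was found in 9 of the 27 members (33.3%) and in 0.137% of all 27025 symbols. Each match is given below 5' to 3' along the motif, with capitals for its fixed letters.
Hspa5, chr2:34772025-34772043: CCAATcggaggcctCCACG
Hsp90b1, chr10:86705638-86705656: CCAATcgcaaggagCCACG
Hsp90b1, chr10:86705533-86705551: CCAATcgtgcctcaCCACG
Dnajc3, chr14:118937827-118937845: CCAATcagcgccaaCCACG
Creld2, chr15:88819520-88819538: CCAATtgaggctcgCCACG
Calr, chr8:84847075-84847093: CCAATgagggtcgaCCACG
Canx, chr11:50325800-50325818: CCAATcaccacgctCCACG
Pdia6, chr12:17266491-17266509: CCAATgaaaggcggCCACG
Syvn1, chr19:6046532-6046550: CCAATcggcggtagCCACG
Derl3, chr10:75893242-75893260: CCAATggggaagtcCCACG
The second form, ATTGG, any 1 base, then CCACG, stood in Dnajb11 and Herpud1 (7.41% of members, 0.0444% of all symbols).
Dnajb11, chr16:22857852-22857862: ATTGGcCCACG
Herpud1, chr8:94386377-94386387: ATTGGgCCACG
The ATF4 element, searched on both strands as TGATG, any 1 base, then AA, stood in Asns, Trib3, Chac1 and Herpud1 (14.8% of members, 4.51% of all symbols).
Trib3, chr2:152344039-152344046: TGATGtAA
Chac1, chr2:119351049-119351056: TGATGcAA
Asns, chr6:7693225-7693232: TGATGaAA
Herpud1, chr8:94386317-94386324: TGATGcAA
The letters TGACGTGG, known as the XBP1 element, were found in 0 of the 27 members and in 0.714% of all symbols. These short matches describe letters in a window and are neither sites nor causes.

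The 250 bases before the start are given for 4 genes described below, Hspa5 because it carries the element and passed no test, Hsp90b1 and Pdia6 because they carry it and were higher in CAFs, and Asns because it carries the ATF4 letters and no other of those searched. The start is that of RefSeq. By the gene coordinates given below, each of these windows reaches into its gene, and the marked letters of Hspa5 and Asns lie inside it. Capitals mark the matches, read on the strand of the gene.
Hspa5, chr2:34771840-34772089, plus strand: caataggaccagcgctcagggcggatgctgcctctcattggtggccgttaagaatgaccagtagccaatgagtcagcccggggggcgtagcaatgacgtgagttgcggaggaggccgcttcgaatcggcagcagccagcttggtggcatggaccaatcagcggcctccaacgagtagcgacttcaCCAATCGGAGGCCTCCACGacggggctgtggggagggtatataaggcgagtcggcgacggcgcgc
Hsp90b1, chr10:86705445-86705694, minus strand: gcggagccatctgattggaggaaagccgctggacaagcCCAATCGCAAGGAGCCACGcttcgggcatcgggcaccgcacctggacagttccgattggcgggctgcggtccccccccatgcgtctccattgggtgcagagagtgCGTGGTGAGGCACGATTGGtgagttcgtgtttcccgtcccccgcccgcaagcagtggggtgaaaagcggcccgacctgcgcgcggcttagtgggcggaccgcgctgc
Pdia6, chr12:17266339-17266588, plus strand: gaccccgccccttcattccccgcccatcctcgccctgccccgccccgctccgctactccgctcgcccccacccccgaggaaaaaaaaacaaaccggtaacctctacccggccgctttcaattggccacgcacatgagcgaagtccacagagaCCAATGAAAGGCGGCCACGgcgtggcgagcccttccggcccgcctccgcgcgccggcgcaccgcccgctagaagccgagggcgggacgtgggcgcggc
Asns, chr6:7693210-7693459, minus strand: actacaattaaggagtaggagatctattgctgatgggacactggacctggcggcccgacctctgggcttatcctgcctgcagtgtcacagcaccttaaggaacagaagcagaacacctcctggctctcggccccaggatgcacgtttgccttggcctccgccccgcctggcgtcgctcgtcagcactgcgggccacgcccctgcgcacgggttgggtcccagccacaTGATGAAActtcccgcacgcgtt

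Libraries held 5790599 to 15240328 counts on genes. Fibroblast markers summed to 20545 to 57744 CPM, endothelial markers to at most 521 CPM, and epithelial, immune, adipocyte and Schwann markers summed to at most 250.01 CPM. Single genes made up most of the highest endothelial and immune sums. Tek reached 447 CPM in CD26+ NFs, while Pecam1 stayed at or under 14.2 CPM in all groups. Cd3e reached 221 CPM in WB1P-Myc CD26+ CAFs, while Ptprc stayed at or under 9.57 CPM in all groups. The 7 pericyte markers summed to 203 to 369.9 CPM in CD26- NFs, 1831 to 5328 in WB1P CD26- CAFs and 2369.7 to 9160.5 in WB1P-Myc CD26- CAFs, against 167 to 189, 169 to 393 and 155 to 310.1 CPM in the matching CD26+ groups. The 8 proliferation markers summed to 135 to 148 and 87.5 to 233 CPM in CD26- and CD26+ NFs and to 227 to 541 CPM in CAFs. The 7 plasma cell markers other than Xbp1 summed to 207 to 707, 645 to 849 and 363 to 755 CPM in CD26- NFs, WB1P and WB1P-Myc CAFs and to 70.1 to 596, 121 to 181 and 119 to 212 CPM in the CD26+ groups. Of these, Sdc1 alone stood at 68.5 to 849 CPM, Igkc reached 119 CPM and Jchain 39.0 CPM in WB1P-Myc CD26- CAFs, and Mzb1 and Tnfrsf17 were under 1 CPM in every sum. The part of these other cells in the results below was not tested, and in sorted bulk RNA fewer cells of a type and less RNA per cell cannot be told apart. No batch is labelled. The p-values rest on the spread between sums of a group. Except where a block is named, the fits had no term for mouse and took all sums as independent. For CD26 classes within mice, and differences of fold changes between them, the block was a fixed factor in edgeR. For comparisons between mice, such as CAFs against NFs, it was a random effect in limma (voom). There the test changed along with the block. Deviations of both CD26 classes of a mouse correlated at 0.237 to 0.668.

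The mean level of the set overlapped between NFs and CAFs. The mean log2 CPM of the 32 members (with 0.5 CPM added) was 6.66, 6.36 and 6.35 in CD26- NFs, 6.52, 6.82, 6.70, 6.53 and 6.69 in WB1P CD26- CAFs and 6.33, 6.56, 6.53, 6.59 and 6.55 in WB1P-Myc CD26- CAFs. In CD26+ fibroblasts the list mean was 6.68, 6.29 and 6.28 in NFs, 6.75, 6.83, 6.60 and 6.56 in WB1P CAFs and 6.59, 6.69, 6.69, 6.66 and 6.53 in WB1P-Myc CAFs. Control mouse 1 lay above the other control mice in both classes and above several of the CAFs. The group means were 6.45 ± 0.17 (SD, n = 3) and 6.42 ± 0.23 (SD, n = 3) in CD26- and CD26+ NFs, 6.65 ± 0.13 (n = 5) and 6.69 ± 0.12 (n = 4) in WB1P CAFs and 6.51 ± 0.10 (n = 5) and 6.63 ± 0.07 (n = 5) in WB1P-Myc CAFs. No test was run on the list mean.

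Single genes went both ways. Higher in CAFs in 2 or more of the 4 comparisons with NFs were disulfide isomerases, Calr, Hsp90b1, Sec61a1, Sec61b and Asns. The same held for Dnajb11, Sdf2l1, Manf and Derl2. Atf4, Eif2ak3, Dnajb9 and Trib3 were lower in 2 or more, and Hspa5 passed in none. A gene was counted as changed at an adjusted p under 0.05 in edgeR's quasi-likelihood test over all genes. In WB1P CD26- CAFs against NFs, 8 members were higher and 3 lower, while 17.6% of all genes tested were higher and 17.8% lower. In WB1P CD26+ CAFs, 12 were higher and 2 lower against a background of 17.4% and 16.1%. In WB1P-Myc CD26- CAFs, 4 were higher and 4 lower against 19.1% and 17.5%, and in WB1P-Myc CD26+ CAFs 12 were higher and 2 lower against 17.4% and 17.3%. The median log2 fold change of the members was 0.21, 0.25, 0.07 and 0.27 in these 4 comparisons, and that of all genes 0.00, 0.00, 0.02 and -0.01. The WB1P and WB1P-Myc comparisons of a class share the same control mice. These counts moved when single mice were left out. Without mouse 2 the changed members numbered 3 and 4 in WB1P and WB1P-Myc CD26- CAFs and 7 in WB1P-Myc CD26+ CAFs. Of all genes tested, 25.7%, 27.5% and 25.1% passed there in either direction. Without mouse 3 or mouse 7 the changed members numbered 5 or 7 in WB1P CD26- CAFs, beside 25.6% or 31.3% of all genes. Without mouse 1 they numbered 13 and 12 in the CD26- comparisons, beside 31.6% and 30.6% of all genes.

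**Figure D1:**
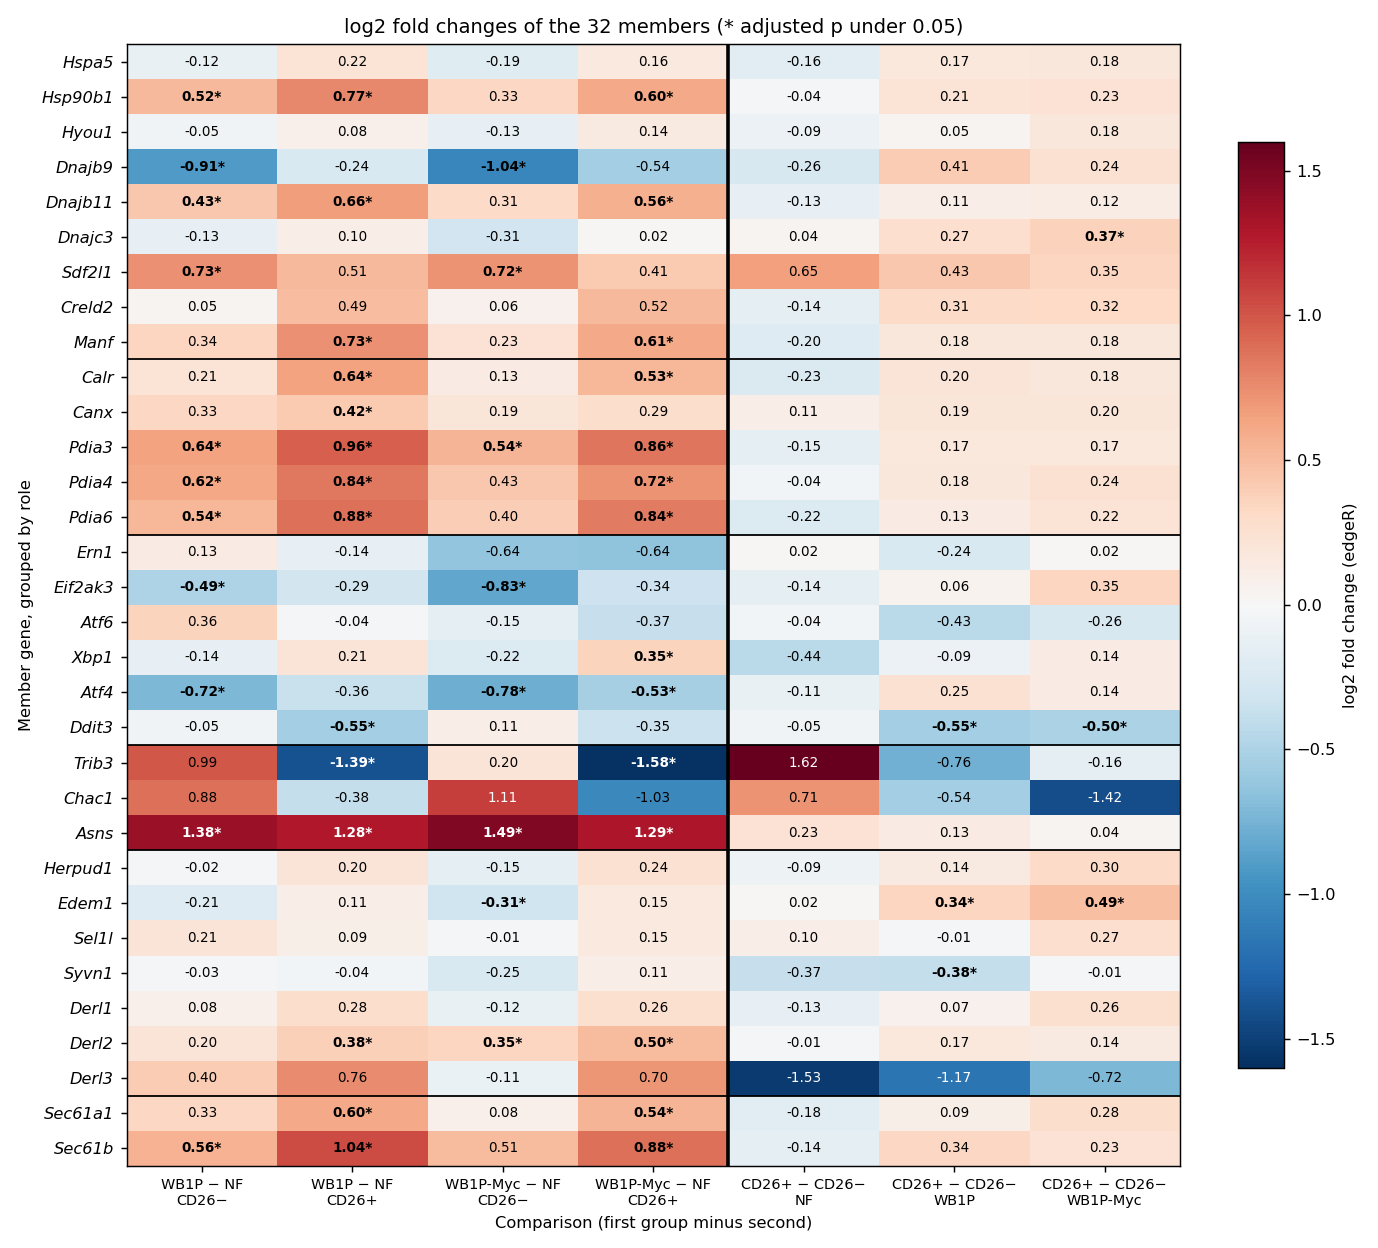
Heat map of log2 fold changes from edgeR for the 32 genes (rows, grouped by role) in 7 comparisons (columns), with red for higher and blue for lower in the first group and a star at an adjusted p under 0.05. Pdia3 (0.54 to 0.96) and Asns (1.28 to 1.49) are red in the 4 CAF columns, Atf4 and Eif2ak3 are blue, and Hspa5 stays between -0.19 and 0.22 there.

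Per kilobase of exon, which allows levels to be compared between genes, Calr (364 CPM per kb on average over the 25 sums) and Hspa5 (333) were the most abundant. Pdia3 (268), Hsp90b1 (253), Atf4 (156), Canx (108), Pdia4 (107) and Pdia6 (102) followed, and these 8 were the members over 100 CPM per kb. At the other end stood Trib3, Chac1 and Derl3, the 3 members that fell under 5 CPM in some sum. Of the 32 members, 11 had their highest value in the WB1P CD26+ sum of mouse 6, which is a single library of 5790599 counts, the smallest of all. In turn, 9 had their lowest value in the CD26+ NFs of mouse 2 and 5 in those of mouse 3. Below, values of a group are given in order of mouse number.

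Every call among lectin chaperones and disulfide isomerases was toward higher levels in CAFs. Of these 5 genes, 3 passed as higher in WB1P CD26- CAFs, 5 in WB1P CD26+, 1 in WB1P-Myc CD26- and 4 in WB1P-Myc CD26+ CAFs, and 0 passed as lower, beside the shares of all genes given above. In that order the medians of their log2 fold changes were 0.54, 0.84, 0.40 and 0.72. Pdia3 encodes ERp57, the isomerase that works with calnexin and calreticulin on glycoproteins. Pdia3 (ENSMUSG00000027248, chr2:121413775-121438687) stood at 675, 497 and 583 CPM in the CD26- NFs, 803, 936, 977, 918 and 918 CPM in the WB1P CD26- CAFs and 682, 845, 824, 1008 and 906 CPM in the WB1P-Myc CD26- CAFs. Pdia3 in CD26+ cells stood at 641, 435 and 509 CPM in the NFs, 973, 1333, 912 and 888 CPM in the WB1P CAFs and 933, 905, 1006, 1046 and 907 CPM in the WB1P-Myc CAFs. All 19 CAF sums lay above the NFs of their class, although mouse 9 in the CD26- class was only just above mouse 1. The log2 fold change was 0.64 ± 0.16 (SE, adjusted p = 0.00388) in WB1P CD26- CAFs and 0.96 ± 0.17 (SE, adjusted p = 0.000289) in WB1P CD26+ CAFs. In WB1P-Myc CAFs it was 0.54 ± 0.16 (SE, adjusted p = 0.0114) in the CD26- class and 0.86 ± 0.16 (SE, adjusted p = 0.000561) in the CD26+ class. The WB1P-Myc CD26- call did not hold without mouse 2 (adjusted p = 0.0539), or without the 2 mice marked 8x8 (0.0964).

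Pdia4 and Pdia6 encode further isomerases, of which PDIA6 also acts on the sensor IRE1. Pdia4 (ENSMUSG00000025823, chr6:47796141-47813430) stood at 228, 118 and 199 CPM in the CD26- NFs, 224, 281, 328, 270.0 and 294 CPM in the WB1P CD26- CAFs and 188, 256, 223, 299 and 259.8 CPM in the WB1P-Myc CD26- CAFs. Pdia4 in CD26+ cells stood at 229.8, 126 and 175 CPM in the NFs, 299, 422, 265 and 282 CPM in the WB1P CAFs and 285, 295, 293, 312 and 267 CPM in the WB1P-Myc CAFs. Mouse 2 was the lowest in both classes, and NFs overlapped with CAFs in the CD26- class but not in the CD26+ class. Pdia4 was higher by 0.62 ± 0.21 (SE, adjusted p = 0.0255) in WB1P CD26- CAFs, 0.84 ± 0.22 (SE, adjusted p = 0.00618) in WB1P CD26+ CAFs and 0.72 ± 0.21 (SE, adjusted p = 0.0126) in WB1P-Myc CD26+ CAFs, with 0.43 (adjusted p = 0.108) in WB1P-Myc CD26- CAFs. Its WB1P CD26- call did not hold without mouse 2 (adjusted p = 0.125), or in a fit of the groups compared alone (0.0503). Its WB1P CD26+ call was lost in a fit of the groups compared alone (adjusted p = 0.0510). Pdia6 (ENSMUSG00000020571, chr12:17266545-17284770) stood at 361, 198 and 293 CPM in the CD26- NFs, 323, 427, 473, 402 and 434 CPM in the WB1P CD26- CAFs and 267, 397, 341, 484 and 381 CPM in the WB1P-Myc CD26- CAFs. Pdia6 in CD26+ cells stood at 324, 180.0 and 229.9 CPM in the NFs, 445, 556, 403 and 403 CPM in the WB1P CAFs and 409.9, 439, 438, 488 and 409 CPM in the WB1P-Myc CAFs. Again mouse 2 was lowest, the CD26- groups overlapped, and the CD26+ groups stood apart. Pdia6 was higher by 0.54 ± 0.21 (SE, adjusted p = 0.0471) in WB1P CD26- CAFs, 0.88 ± 0.22 (SE, adjusted p = 0.00403) in WB1P CD26+ CAFs and 0.84 ± 0.21 (SE, adjusted p = 0.00444) in WB1P-Myc CD26+ CAFs. In WB1P-Myc CD26- CAFs its log2 fold change was 0.40 (adjusted p = 0.132). The WB1P CD26- call of Pdia6 was lost without any 1 of mice 2, 3, 5, 6, 7, 8, 10 and 13 (adjusted p = 0.0549 to 0.208), or with no low-count filter (0.0684), or in a fit of the groups compared alone (0.0700), or without the 2 mice marked 8x8 (0.0566).

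Calreticulin (Calr) and calnexin (Canx) are the lectin chaperones that hold glycoproteins with a trimmed sugar. Calr ranged over 655 to 1514 CPM and rose in CD26+ CAFs, by 0.64 ± 0.17 (SE, adjusted p = 0.00583) in WB1P and 0.53 ± 0.16 (SE, adjusted p = 0.0136) in WB1P-Myc. In CD26- CAFs its log2 fold changes were 0.21 and 0.13, which did not pass. Canx ranged over 350.1 to 659 CPM and passed only in WB1P CD26+ CAFs, at 0.42 ± 0.15 (SE, adjusted p = 0.0358), and with mouse as a block also in WB1P CD26- CAFs, at 0.34 (adjusted p = 0.0476), as in DESeq2 at 0.33 (adjusted p = 0.0424). The Calr call in WB1P CD26+ CAFs was lost in a fit of the groups compared alone (adjusted p = 0.0712) and that in WB1P-Myc CD26+ CAFs without mouse 2 (adjusted p = 0.0704). The Canx call was lost without any 1 of mice 2, 3, 5 and 6 (adjusted p = 0.0760 to 0.142), or with no low-count filter (0.107), or in a fit of the groups compared alone (0.141).

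Among the 9 chaperones and co-factors of the ER lumen, 3 rose and 1 fell in WB1P CD26- CAFs, 3 rose in WB1P CD26+, 1 rose and 1 fell in WB1P-Myc CD26-, and 3 rose in WB1P-Myc CD26+ CAFs, beside 16.1% to 19.1% of all genes in each direction. The medians over these 9 were 0.05, 0.49, 0.06 and 0.41. Hspa5, which passed in none of the 4, encodes BiP, the Hsp70 of the ER and the standard marker of the unfolded protein response. Hspa5 (ENSMUSG00000026864, chr2:34771970-34777547) stood at 1376, 1875 and 1184 CPM in the CD26- NFs, 1151, 1661, 1561, 1185 and 1259.8 CPM in the WB1P CD26- CAFs and 1341, 1287, 1365, 1228 and 1265 CPM in the WB1P-Myc CD26- CAFs. Hspa5 in CD26+ cells stood at 1447, 1419 and 1092 CPM in the NFs, 1862, 1797, 1283 and 1193 CPM in the WB1P CAFs and 1634, 1413, 1718, 1354 and 1225 CPM in the WB1P-Myc CAFs. The groups overlapped in both classes, and the highest CD26- value was that of control mouse 2. The log2 fold changes were -0.12 (adjusted p = 0.649) and -0.19 (adjusted p = 0.433) in WB1P and WB1P-Myc CD26- CAFs. For CD26+ CAFs they were 0.22 (adjusted p = 0.402) and 0.16 (adjusted p = 0.536), with an SE of 0.19 and 0.19.

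Hsp90b1 encodes GRP94, the Hsp90 of the ER, which folds integrins and Toll-like receptors. Hsp90b1 (ENSMUSG00000020048, chr10:86690209-86705509) stood at 868, 633 and 781 CPM in the CD26- NFs, 938, 1159, 1215, 994 and 1154 CPM in the WB1P CD26- CAFs and 779, 927, 913, 1149.7 and 1023 CPM in the WB1P-Myc CD26- CAFs. Hsp90b1 in CD26+ cells stood at 886, 620.0 and 718 CPM in the NFs, 1372, 1668, 1005 and 1024 CPM in the WB1P CAFs and 1180.0, 1008, 1119, 1286 and 1044 CPM in the WB1P-Myc CAFs. Except for mouse 9 in the CD26- class, every CAF sum lay above the NFs of its class, with the highest value in mouse 6. Hsp90b1 was higher by 0.52 ± 0.18 (SE, adjusted p = 0.0270) in WB1P CD26- CAFs, 0.77 ± 0.19 (SE, adjusted p = 0.00371) in WB1P CD26+ CAFs and 0.60 ± 0.18 (SE, adjusted p = 0.0130) in WB1P-Myc CD26+ CAFs. In WB1P-Myc CD26- CAFs the log2 fold change was 0.33 (adjusted p = 0.144). The WB1P CD26- call did not hold without mouse 2 or 3 (adjusted p = 0.117 and 0.0614). The WB1P CD26+ call was lost in a fit of the groups compared alone (adjusted p = 0.0616), and the WB1P-Myc CD26+ call without mouse 2 (adjusted p = 0.0614).

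**Figure D2:**
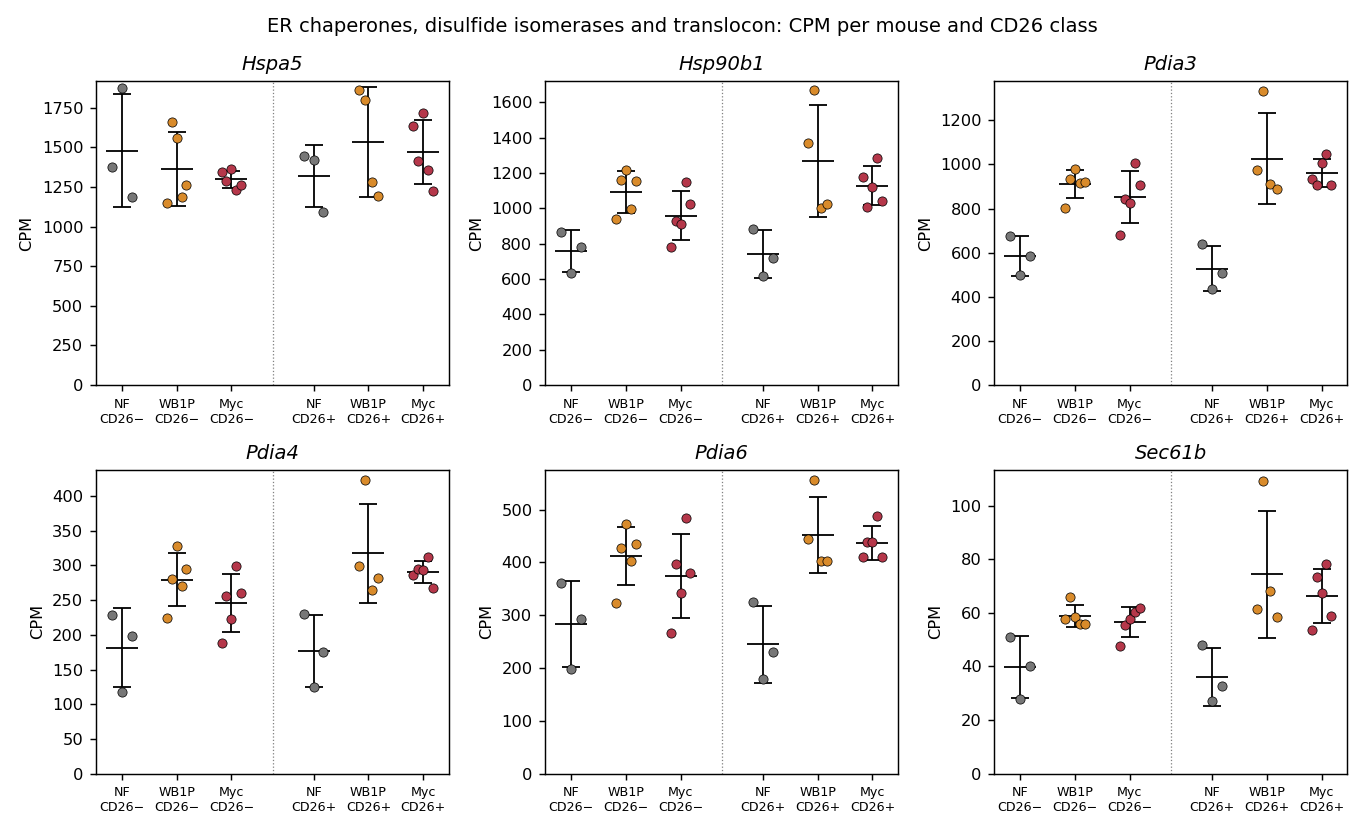
Values of Hspa5, Hsp90b1, Pdia3, Pdia4, Pdia6 and Sec61b in CPM (linear axis from 0), with 1 point per mouse and CD26 class and bars for mean and SD in NFs (grey), WB1P (orange) and WB1P-Myc CAFs (red). The Pdia3 points of CD26+ CAFs (888 CPM and above) stand clear of the NFs (641 CPM and below), whereas those of Hspa5 overlap in both classes.

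The DnaJ co-chaperones of BiP split. Dnajb11 (ERdj3) binds unfolded chains and Dnajb9 (ERdj4) holds IRE1 in check. Dnajb11 (ENSMUSG00000004460, chr16:22857845-22879634) stood at 90.1, 74.1 and 75.9 CPM in the CD26- NFs, 89.3, 114, 116, 105 and 115 CPM in the WB1P CD26- CAFs and 81.4, 108, 98.8, 107 and 100.0 CPM in the WB1P-Myc CD26- CAFs. Dnajb11 in CD26+ cells stood at 87.9, 64.9 and 66.4 CPM in the NFs, 111, 141, 103 and 109 CPM in the WB1P CAFs and 98.6, 116, 116, 106 and 104 CPM in the WB1P-Myc CAFs. Mouse 9 and mouse 4 lay within the NFs in the CD26- class, and the CD26+ CAFs lay above all NFs. Dnajb11 was higher by 0.43 ± 0.13 (SE, adjusted p = 0.0150), 0.66 ± 0.14 (SE, adjusted p = 0.00118) and 0.56 ± 0.13 (SE, adjusted p = 0.00294) in WB1P CD26-, WB1P CD26+ and WB1P-Myc CD26+ CAFs, with 0.31 (adjusted p = 0.0702) in WB1P-Myc CD26- CAFs. The WB1P CD26- call was lost without mouse 2 or 3 (adjusted p = 0.0600 and 0.0577). Dnajb9 (ENSMUSG00000014905, chr12:44205559-44210326) stood at 129, 231 and 111 CPM in the CD26- NFs, 56.4, 152, 87.8, 65.0 and 58.3 CPM in the WB1P CD26- CAFs and 64.2, 83.2, 77.4, 67.9 and 89.3 CPM in the WB1P-Myc CD26- CAFs. Dnajb9 in CD26+ cells stood at 125, 169 and 102 CPM in the NFs, 195, 105, 74.3 and 70.5 CPM in the WB1P CAFs and 88.6, 78.8, 106, 87.6 and 92.1 CPM in the WB1P-Myc CAFs. Control mouse 2 was far above the other NFs in the CD26- class, and WB1P mouse 5 was well above the other CAFs in both classes. It lay among the NFs in the CD26- class and above all NFs in the CD26+ class, where mice 6 and 11 fell in the NF range. Dnajb9 was lower in CD26- CAFs, at -0.91 ± 0.32 (SE, adjusted p = 0.0302) in WB1P and -1.04 ± 0.32 (SE, adjusted p = 0.0140) in WB1P-Myc. In CD26+ CAFs it was at -0.24 (adjusted p = 0.606) and -0.54 (adjusted p = 0.192), and the latter passed in a fit of the groups compared alone at -0.55 (adjusted p = 0.0319). The WB1P call was lost without any 1 of mice 2, 4, 7 and 8 (adjusted p = 0.0625 to 0.297), or in a fit of the groups compared alone (0.0815), or without the 2 mice marked 8x8 (0.0515). The WB1P-Myc call did not hold without mouse 2 (adjusted p = 0.162), or without the 2 mice marked 8x8 (0.0561).

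Sdf2l1 and Manf are ER residents that rise under ER stress, SDF2L1 as a partner of DnaJ proteins and MANF as a BiP-binding factor that can also be secreted. Sdf2l1 (ENSMUSG00000022769, chr16:17130138-17132383) stood at 10.4, 10.0 and 7.62 CPM in the CD26- NFs, 16.4, 13.1, 17.1, 13.5 and 17.5 CPM in the WB1P CD26- CAFs and 13.7, 17.4, 16.0, 16.1 and 13.7 CPM in the WB1P-Myc CD26- CAFs. Sdf2l1 in CD26+ cells stood at 15.0, 16.4 and 12.6 CPM in the NFs, 16.3, 33.1, 18.8 and 16.6 CPM in the WB1P CAFs and 14.6, 27.2, 21.3, 19.5 and 15.3 CPM in the WB1P-Myc CAFs. All CD26- CAFs were above the CD26- NFs, while in the CD26+ class the NFs began higher and overlapped with CAFs, and mouse 6 and mouse 10 stood above the rest. Sdf2l1 was higher by 0.73 ± 0.22 (SE, adjusted p = 0.0138) and 0.72 ± 0.22 (SE, adjusted p = 0.0155) in WB1P and WB1P-Myc CD26- CAFs, against 0.51 (adjusted p = 0.0860) and 0.41 (adjusted p = 0.146) in the CD26+ class. The calls did not hold without mouse 3 (adjusted p = 0.0820) for WB1P and without mouse 3 (adjusted p = 0.0908) for WB1P-Myc. Manf (ENSMUSG00000032575, chr9:106838312-106891979) stood at 115, 98.4 and 91.5 CPM in the CD26- NFs, 113, 137, 142, 119 and 130.3 CPM in the WB1P CD26- CAFs and 110.0, 132, 117, 123 and 113 CPM in the WB1P-Myc CD26- CAFs. Manf in CD26+ cells stood at 109, 79.1 and 76.5 CPM in the NFs, 139, 215, 120.2 and 111 CPM in the WB1P CAFs and 127, 162, 141, 134 and 110.3 CPM in the WB1P-Myc CAFs. NFs and CAFs overlapped in the CD26- class, and in the CD26+ class the lowest CAFs lay only slightly above mouse 1. Manf was higher in CD26+ CAFs by 0.73 ± 0.18 (SE, adjusted p = 0.00493) in WB1P and 0.61 ± 0.18 (SE, adjusted p = 0.0111) in WB1P-Myc, with 0.34 (adjusted p = 0.134) and 0.23 (adjusted p = 0.307) in CD26- CAFs. The WB1P CD26+ call was lost in a fit of the groups compared alone (adjusted p = 0.0792), and the WB1P-Myc CD26+ call without mouse 2 or 3 (adjusted p = 0.0528 and 0.0590).

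The remaining members of the lumen passed no comparison of CAFs with NFs in edgeR with all 13 mice and no block. Hyou1, the nucleotide exchange factor of BiP, ranged over 156 to 279 CPM with log2 fold changes of -0.13 to 0.14. Creld2, an ER protein induced by stress, ranged over 30.5 to 81.3 CPM with 0.05 to 0.52, and with mouse as a block it passed in WB1P-Myc CD26+ CAFs at 0.53 (adjusted p = 0.0290). Dnajc3 (p58IPK), an inhibitor of PERK, ranged over 142 to 267 CPM with -0.31 to 0.10, and DESeq2 called it lower in WB1P-Myc CD26- CAFs at -0.33 (adjusted p = 0.0361).

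Both Sec61 subunits in the set were higher in CD26+ CAFs. Sec61b (ENSMUSG00000053317, chr4:47474658-47483242) stood at 51.2, 27.8 and 40.3 CPM in the CD26- NFs, 57.5, 65.7, 58.3, 55.8 and 56.0 CPM in the WB1P CD26- CAFs and 47.6, 55.6, 57.8, 60.5 and 61.7 CPM in the WB1P-Myc CD26- CAFs. Sec61b in CD26+ cells stood at 48.1, 27.3 and 32.6 CPM in the NFs, 61.4, 109, 68.3 and 58.4 CPM in the WB1P CAFs and 53.6, 73.3, 67.3, 78.2 and 58.9 CPM in the WB1P-Myc CAFs. Mouse 2 held the lowest value in both classes, all WB1P CAFs lay above the NFs, and of the WB1P-Myc CAFs mouse 9 in the CD26- class fell among them. Sec61b was higher by 0.56 ± 0.21 (SE, adjusted p = 0.0406) in WB1P CD26- CAFs, 1.04 ± 0.22 (SE, adjusted p = 0.00139) in WB1P CD26+ CAFs and 0.88 ± 0.21 (SE, adjusted p = 0.00342) in WB1P-Myc CD26+ CAFs. In WB1P-Myc CD26- CAFs it was at 0.51 (adjusted p = 0.0595), and with mouse as a block that value passed at 0.55 (adjusted p = 0.0306). The WB1P CD26- call was lost without any 1 of mice 2, 3, 4, 5 and 7 (adjusted p = 0.0529 to 0.190), or without the 2 mice marked 8x8 (0.0584). Sec61a1, the pore-forming subunit, ranged over 276 to 551 CPM and was higher by 0.60 ± 0.16 (SE, adjusted p = 0.00724) in WB1P and 0.54 ± 0.16 (SE, adjusted p = 0.0107) in WB1P-Myc CD26+ CAFs, and the WB1P-Myc call was lost without mouse 2 or 3 (adjusted p = 0.0577 and 0.0525). The WB1P call was lost in a fit of the groups compared alone (adjusted p = 0.0682).

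Among sensors and transcription factors most calls were toward lower levels. Of these 6 genes, 2 fell in WB1P CD26- CAFs, 1 in WB1P CD26+, 2 in WB1P-Myc CD26- and 1 in WB1P-Myc CD26+ CAFs, and 1 rose, in the last of these, beside 16.1% to 19.1% of all genes in each direction. The medians over these 6 were -0.09, -0.22, -0.43 and -0.36. Atf4 is translated when PERK or related kinases slow general translation, and its mRNA level shows only part of its control. Atf4 (ENSMUSG00000042406, chr15:80255184-80257541) stood at 482, 640.0 and 422 CPM in the CD26- NFs, 268, 421, 321, 291 and 259 CPM in the WB1P CD26- CAFs and 271, 305, 281, 287 and 357 CPM in the WB1P-Myc CD26- CAFs. Atf4 in CD26+ cells stood at 532, 478 and 417 CPM in the NFs, 458, 466, 304 and 257 CPM in the WB1P CAFs and 308, 315, 389, 304 and 334 CPM in the WB1P-Myc CAFs. All CD26- CAFs lay below the CD26- NFs, with WB1P mouse 5 only just below mouse 3, and in the CD26+ class WB1P mice 5 and 6 reached the NFs while the other CAFs did not. Atf4 was lower at -0.72 ± 0.19 (SE, adjusted p = 0.00519) in WB1P CD26- CAFs, -0.78 ± 0.19 (SE, adjusted p = 0.00315) in WB1P-Myc CD26- CAFs and -0.53 ± 0.19 (SE, adjusted p = 0.0357) in WB1P-Myc CD26+ CAFs. In WB1P CD26+ CAFs its log2 fold change was -0.36 (adjusted p = 0.170). The WB1P CD26- call did not hold without mouse 2 (adjusted p = 0.0757). The WB1P-Myc CD26+ call was lost without any 1 of mice 1, 2, 9, 10, 12 and 13 (adjusted p = 0.0533 to 0.141), or with no low-count filter (0.0702), or without the 2 mice marked 8x8 (0.121).

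Eif2ak3 encodes PERK, which phosphorylates the initiation factor eIF2. Eif2ak3 (ENSMUSG00000031668, chr6:70844515-70905245) stood at 87.2, 75.1 and 81.2 CPM in the CD26- NFs, 39.8, 86.6, 60.8, 54.6 and 46.1 CPM in the WB1P CD26- CAFs and 41.6, 52.4, 45.2, 42.0 and 47.2 CPM in the WB1P-Myc CD26- CAFs. Eif2ak3 in CD26+ cells stood at 73.8, 74.2 and 72.4 CPM in the NFs, 54.8, 50.7, 67.0 and 66.7 CPM in the WB1P CAFs and 70.7, 61.5, 43.0, 64.5 and 51.4 CPM in the WB1P-Myc CAFs. The WB1P-Myc CD26- CAFs lay well below the NFs, WB1P mouse 5 reached them, and in the CD26+ class every CAF lay below the narrow range of the NFs. Eif2ak3 was lower at -0.49 ± 0.18 (SE, adjusted p = 0.0402) in WB1P and -0.83 ± 0.18 (SE, adjusted p = 0.00148) in WB1P-Myc CD26- CAFs. In CD26+ CAFs it was at -0.29 (adjusted p = 0.247) and -0.34 (adjusted p = 0.161). The WB1P call was lost without any 1 of mice 1, 2, 3, 4, 7 and 8 (adjusted p = 0.0760 to 0.137), or with no low-count filter (0.0951), or in a fit of the groups compared alone (0.116), or with mouse as a block (0.0537), or without the 2 mice marked 8x8 (0.0632).

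Xbp1 encodes the factor that IRE1 switches on, and reads of its spliced and unspliced mRNA fall on the same gene. Xbp1 (ENSMUSG00000020484, chr11:5520659-5525893) stood at 222, 229 and 205 CPM in the CD26- NFs, 239, 183, 199, 180.3 and 194 CPM in the WB1P CD26- CAFs and 169.6, 197, 184, 197 and 192 CPM in the WB1P-Myc CD26- CAFs. Xbp1 in CD26+ cells stood at 185, 145 and 156 CPM in the NFs, 147, 229, 189 and 181 CPM in the WB1P CAFs and 222, 209, 231, 173 and 197 CPM in the WB1P-Myc CAFs. All WB1P-Myc CD26- CAFs lay below the CD26- NFs while those of WB1P overlapped with them, and in the CD26+ class most CAFs lay above the NFs with overlap at mice 5, 8 and 12. Xbp1 passed only in WB1P-Myc CD26+ CAFs, at 0.35 ± 0.13 (SE, adjusted p = 0.0450), a call that was lost without any 1 of mice 2, 3, 7, 8, 9, 10, 11 and 13 (adjusted p = 0.0571 to 0.161), or with DESeq2's size factors (0.0672), or with no low-count filter (0.100), or in a fit of the groups compared alone (0.0752), or with mouse as a block (0.0595). In the other CAF comparisons it was at -0.14 (adjusted p = 0.442), 0.21 (adjusted p = 0.256) and -0.22 (adjusted p = 0.196) in WB1P CD26-, WB1P CD26+ and WB1P-Myc CD26- CAFs.

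Ddit3 encodes CHOP, a factor of prolonged ER stress linked to cell death. Ddit3 (ENSMUSG00000025408, chr10:127290774-127296288) stood at 22.1, 24.3 and 22.7 CPM in the CD26- NFs, 29.1, 21.9, 17.7, 20.5 and 22.1 CPM in the WB1P CD26- CAFs and 23.2, 20.6, 29.9, 25.5 and 24.9 CPM in the WB1P-Myc CD26- CAFs. Ddit3 in CD26+ cells stood at 25.4, 19.3 and 22.0 CPM in the NFs, 13.001, 14.8, 17.8 and 15.2 CPM in the WB1P CAFs and 11.8, 20.2, 20.5, 15.8 and 19.2 CPM in the WB1P-Myc CAFs. The CD26- groups overlapped, all WB1P CD26+ CAFs lay below the CD26+ NFs, and WB1P-Myc CD26+ CAFs reached from far below them into their range. Ddit3 was lower in WB1P CD26+ CAFs at -0.55 ± 0.18 (SE, adjusted p = 0.0243), a call that was lost without mouse 1 or 3 or 5 (adjusted p = 0.103, 0.0721 and 0.0560), or in a fit of the groups compared alone (0.0777), or with mouse as a block (0.0516). It was at -0.05 (adjusted p = 0.842), 0.11 (adjusted p = 0.654) and -0.35 (adjusted p = 0.119) in WB1P CD26-, WB1P-Myc CD26- and WB1P-Myc CD26+ CAFs. Ern1 (IRE1) ranged over 38.2 to 186 CPM and Atf6 over 77.8 to 202 CPM, and neither passed in any of the 4 comparisons. In a fit of the groups compared alone Ern1 was lower in WB1P-Myc CD26- CAFs at -0.63 (adjusted p = 0.00949) and CD26+ CAFs at -0.65 (adjusted p = 0.0138), and Atf6 in WB1P-Myc CD26+ CAFs at -0.38 (adjusted p = 0.0417). Both were highest in the CD26- or CD26+ sums of WB1P mouse 5, where Ern1 reached 186 and 157 CPM and Atf6 201 and 202 CPM.

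Of the 3 targets of ATF4 in the set, Asns passed as higher, Trib3 as lower and Chac1 in no comparison. Asns encodes asparagine synthetase, which ATF4 induces when amino acids run short. Asns (ENSMUSG00000029752, chr6:7675169-7693254) stood at 15.9, 9.90 and 7.32 CPM in the CD26- NFs, 30.2, 30.3, 21.2, 19.7 and 42.3 CPM in the WB1P CD26- CAFs and 24.4, 29.3, 30.1, 26.9 and 44.0 CPM in the WB1P-Myc CD26- CAFs. Asns in CD26+ cells stood at 21.5, 9.63 and 7.89 CPM in the NFs, 30.0, 37.7, 30.8 and 28.0 CPM in the WB1P CAFs and 26.6, 29.9, 34.8, 36.6 and 31.3 CPM in the WB1P-Myc CAFs. All 19 CAF sums lay above the NFs of their class, and mouse 1 was the highest NF in both classes. Asns was higher by 1.38 ± 0.31 (SE, adjusted p = 0.00142) and 1.28 ± 0.32 (SE, adjusted p = 0.00417) in WB1P CD26- and CD26+ CAFs, and by 1.49 ± 0.31 (SE, adjusted p = 0.000867) and 1.29 ± 0.31 (SE, adjusted p = 0.00300) in WB1P-Myc CD26- and CD26+ CAFs. These 4 calls held under all 19 alternatives run for single genes.

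Trib3 encodes a pseudokinase induced by ATF4 and CHOP that dampens ATF4. Trib3 (ENSMUSG00000032715, chr2:152337422-152344032) stood at 3.22, 1.31 and 0.894 CPM in the CD26- NFs, 3.41, 2.64, 2.33, 2.32 and 7.25 CPM in the WB1P CD26- CAFs and 0.962, 1.65, 3.29, 2.41 and 2.10 CPM in the WB1P-Myc CD26- CAFs. Trib3 in CD26+ cells stood at 4.59, 7.78 and 4.31 CPM in the NFs, 1.20, 1.81, 2.52 and 2.84 CPM in the WB1P CAFs and 0.842, 1.70, 2.34, 2.81 and 1.64 CPM in the WB1P-Myc CAFs. These values rest on 10 to 206 counts per sum. CD26+ CAFs lay below the CD26+ NFs without overlap, CD26- groups overlapped, and mouse 8 stood above the other WB1P CD26- CAFs. Trib3 was lower in CD26+ CAFs, at -1.39 ± 0.49 (SE, adjusted p = 0.0312) in WB1P and -1.58 ± 0.46 (SE, adjusted p = 0.0110) in WB1P-Myc. In CD26- CAFs it was at 0.99 (adjusted p = 0.113) and 0.20 (adjusted p = 0.760). The WB1P call did not hold without mouse 2 or 5 or 6 (adjusted p = 0.154, 0.0757 and 0.0687). The WB1P-Myc call was lost without mouse 2 (adjusted p = 0.0778). Chac1, which degrades glutathione and is induced by ATF4, ranged over 0.0921 to 2.38 CPM and passed in none of the 4 comparisons, with log2 fold changes of -1.03 to 1.11.

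**Figure D3:**
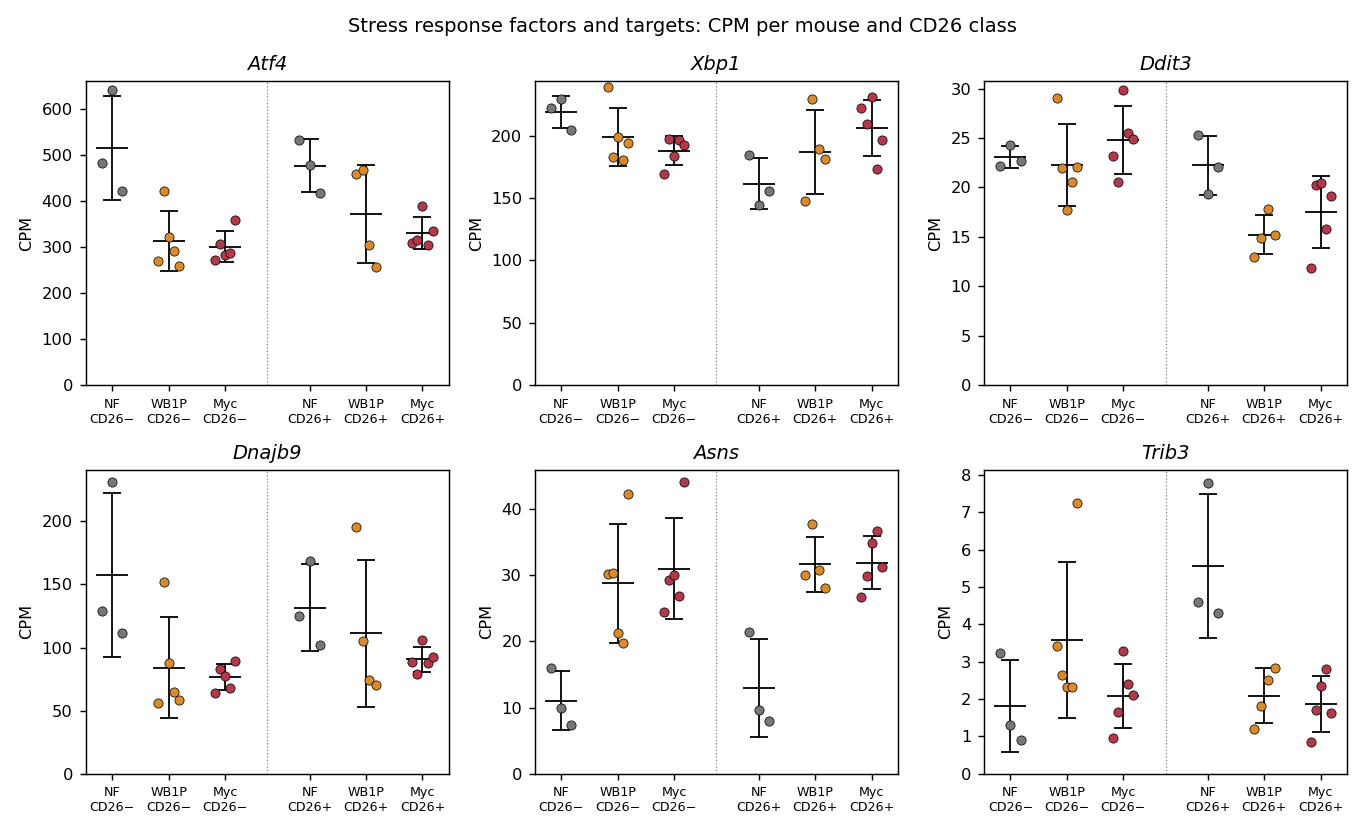
Values of Atf4, Xbp1, Ddit3, Dnajb9, Asns and Trib3 in CPM (linear axis from 0), with 1 point per mouse and CD26 class and bars for mean and SD in NFs (grey), WB1P (orange) and WB1P-Myc CAFs (red). Asns is higher in all CAF groups (means of 28.7 to 31.9 CPM against 11.1 and 12.996 CPM), and Atf4 and Dnajb9 lie lower in CD26- CAFs.

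Of the 7 genes of ER-associated degradation, 0 passed in WB1P CD26- CAFs, 1 rose in WB1P CD26+ and in WB1P-Myc CD26+ CAFs, and 1 rose and 1 fell in WB1P-Myc CD26- CAFs, beside 16.1% to 19.1% of all genes in each direction. The medians over these 7 were 0.08, 0.20, -0.12 and 0.24. The derlins help to move misfolded protein out of the ER. Derl2 ranged over 24.8 to 40.9 CPM and was higher by 0.38 ± 0.12 (SE, adjusted p = 0.0182) in WB1P CD26+, 0.35 ± 0.12 (SE, adjusted p = 0.0231) in WB1P-Myc CD26- and 0.50 ± 0.12 (SE, adjusted p = 0.00256) in WB1P-Myc CD26+ CAFs. The WB1P CD26+ call was lost without mouse 1 or 3 or 6 (adjusted p = 0.0532, 0.0731 and 0.0779), or with no low-count filter (0.0768), or in a fit of the groups compared alone (0.115). The WB1P-Myc CD26- call was lost without any 1 of mice 2, 3, 10 and 12 (adjusted p = 0.0580 to 0.0908), or with no low-count filter (0.0709), or in a fit of the groups compared alone (0.0677). Edem1, which reads the trimmed sugars of misfolded glycoproteins, ranged over 90.5 to 158 CPM and was lower in WB1P-Myc CD26- CAFs at -0.31 ± 0.12 (SE, adjusted p = 0.0389), a call lost without any 1 of mice 1, 2, 11, 12 and 13 (adjusted p = 0.0509 to 0.157), or with no low-count filter (0.131), or in a fit of the groups compared alone (0.0638), or without the 2 mice marked 8x8 (0.143).

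Other members of this group passed in none of the 4 comparisons. They were Herpud1 (78.6 to 174 CPM), which organises the degradation complex, Sel1l (131 to 222 CPM) and Syvn1 (57.9 to 102 CPM), the adaptor and the ubiquitin ligase of that complex, and the derlins Derl1 (90.0 to 165 CPM) and Derl3 (0.0396 to 1.24 CPM). Their log2 fold changes ran from -0.25 (Syvn1 in WB1P-Myc CD26- CAFs) to 0.76 (Derl3 in WB1P CD26+ CAFs).

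CD26+ and CD26- fibroblasts were compared within each condition, without pairing the classes of a mouse except where a block is named. In NFs 0 passed in edgeR, where 2.67% of all genes tested were higher and 1.49% lower in CD26+ cells. 5 members had an unadjusted p under 0.05 there. DESeq2 called 2 (6.01% of all genes), the fit with mouse as a block 4 (11.5%), and edgeR without mouse 1 called 1 (2.81%). In WB1P CAFs 1 member was higher and 2 lower (13% and 13% of all genes), and in WB1P-Myc CAFs 2 were higher and 1 lower (9.29% and 10.7%). Median log2 differences of the members were -0.10, 0.14 and 0.18 in NFs, WB1P and WB1P-Myc CAFs, beside -0.02, 0.01 and -0.01 for all genes. With mouse as a block the counts were 7 in WB1P and 6 in WB1P-Myc CAFs, where 35.1% and 32.2% of all genes passed in either direction. Without the block they numbered 1 in WB1P CAFs without mouse 4 (22.0% of all genes). In WB1P-Myc CAFs they numbered 1 without mouse 9 or 12 (12.5% or 14.0% of all genes).

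Ddit3 was lower in CD26+ than in CD26- CAFs, in 4 of 4 mice with WB1P and 5 of 5 with WB1P-Myc tumors, and in 2 of 3 control mice. The log2 difference was -0.55 ± 0.16 (SE, adjusted p = 0.0156) in WB1P and -0.50 ± 0.15 (SE, adjusted p = 0.0196) in WB1P-Myc CAFs, beside -0.05 (adjusted p = 0.975) in NFs. The calls were lost without mouse 4 or 5 (adjusted p = 0.0535 and 0.0632) for WB1P and without mouse 9 or 12 (adjusted p = 0.0797 and 0.0839), or without the 2 mice marked 8x8 (0.157) for WB1P-Myc. Edem1 was higher in CD26+ CAFs by 0.34 ± 0.11 (SE, adjusted p = 0.0225) in WB1P and 0.49 ± 0.10 (SE, adjusted p = 0.00140) in WB1P-Myc, in 4 of 4 and 5 of 5 mice, and the WB1P call was lost without mouse 4 or 6 or 7 (adjusted p = 0.0662, 0.0547 and 0.107), or with no low-count filter (0.118), or in a fit of the groups compared alone (0.0767). Syvn1 was lower in WB1P CD26+ CAFs at -0.38 ± 0.11 (SE, adjusted p = 0.0143), a call lost without mouse 5 (adjusted p = 0.0531). Dnajc3 was higher in WB1P-Myc CD26+ CAFs at 0.37 ± 0.12 (SE, adjusted p = 0.0275), a call lost without any 1 of mice 9, 11, 12 and 13 (adjusted p = 0.0619 to 0.186), or with no low-count filter (0.0981), or in a fit of the groups compared alone (0.0672), or without the 2 mice marked 8x8 (0.146).

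With mouse as a block further members passed in this comparison. In NFs these were Sdf2l1 at 0.66 (adjusted p = 0.0219), Trib3 at 1.75 (adjusted p = 0.00802), Syvn1 at -0.39 (adjusted p = 0.0283) and Derl3 at -1.66 (adjusted p = 0.0310). Without the block Trib3 was at 1.62 (adjusted p = 0.0962). DESeq2 called Trib3 as well, and Xbp1 at -0.45 (adjusted p = 0.0350). In WB1P CAFs the block added Sdf2l1 at 0.41 (adjusted p = 0.0425), Ern1 at -0.44 (adjusted p = 0.0253), Atf6 at -0.57 (adjusted p = 0.0133) and Derl3 at -1.07 (adjusted p = 0.0427). In WB1P-Myc CAFs it added Chac1 at -1.44 (adjusted p = 0.00322), Derl1 at 0.27 (adjusted p = 0.0387) and Sec61a1 at 0.28 (adjusted p = 0.0257). Derl3 and Chac1 are low, at 0.0396 to 1.24 CPM and 0.0921 to 2.38 CPM.

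Whether the CAF difference itself was unlike in the CD26 classes was tested as the difference of the log2 fold changes, CD26+ minus CD26-. 0 members passed in edgeR for WB1P and 0 for WB1P-Myc, beside 1.86% and 1.16% of all genes, and 1 and 6 members had an unadjusted p under 0.05. DESeq2 called 1 and 0 members (3.92% and 2.49% of all genes) and the fit with mouse as a block 1 and 0 (5.13% and 3.15% of all genes), in each case Trib3 for WB1P. For Trib3 the difference was -2.38 ± 0.69 (SE, adjusted p = 0.0823) for WB1P and -1.78 (adjusted p = 0.292) for WB1P-Myc, and with the block -2.47 (adjusted p = 0.0142) for WB1P. The medians over the members were 0.23 and 0.32, beside 0.02 and -0.01 over all genes. For Pdia3 the differences were 0.32 and 0.32, for Hsp90b1 0.25 and 0.27 and for Sec61b 0.48 and 0.37, none of which passed.

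Between tumors with and without the Myc transgene no member passed. In WB1P-Myc against WB1P CAFs, 0 members passed in edgeR in the CD26- class and 0 in the CD26+ class, where 0.512% and 0% of all genes passed, with 2 and 0 members at an unadjusted p under 0.05 and 0 in DESeq2. The log2 differences ran from -0.79 to 0.23 in the CD26- class and from -0.65 to 0.20 in the CD26+ class, and 5 and 10 of the 32 were positive. The medians were -0.12 and -0.07, beside 0.03 and -0.01 for all genes. The En1 lineage classes were compared as pairs. In 19 pairs of GFP+ and GFP- libraries of the same mouse and class, the 29 members with at least 5 CPM in every sum had median log2 ratios of -0.0044 to 0.098, and each was higher in GFP+ cells in 9 to 16 of the pairs. No test was run on the GFP pairs.

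Neighbouring steps of the secretory pathway were counted from gene lists, in the order WB1P CD26-, WB1P CD26+, WB1P-Myc CD26- and WB1P-Myc CD26+ CAFs. In that order 17.6% and 17.8%, 17.4% and 16.1%, 19.1% and 17.5%, and 17.4% and 17.3% of all genes tested were higher and lower, which is the background of all list counts here. Of 15 other disulfide isomerases and oxidative folding genes, 6 and 2, 10 and 1, 5 and 1, and 10 and 1 were higher and lower. Among them Pdia5, an isomerase, was higher by 1.59 (adjusted p = 0.000147), 1.66 (adjusted p = 0.000250), 1.46 (adjusted p = 0.000377) and 1.54 (adjusted p = 0.000361). Ero1l, the oxidase that recharges the isomerases, was higher by 2.08 (adjusted p = 6.07e-05) and 1.48 (adjusted p = 0.00233) in WB1P CAFs, and its CD26- value was lower in WB1P-Myc than in WB1P, at -1.49 (adjusted p = 0.0210). Of 13 genes for collagen folding and prolyl isomerisation, 6 and 0, 10 and 0, 3 and 0, and 9 and 0 were higher and lower. Median log2 fold changes were 0.33, 0.62, 0.24 and 0.59 for the first list and 0.40, 0.82, 0.27 and 0.64 for the second. P4ha2, a collagen prolyl hydroxylase, was higher by 1.77 (adjusted p = 7.66e-05) and 1.59 (adjusted p = 0.000484) in WB1P CD26- and CD26+ CAFs.

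For entry into the ER, 5 and 0, 12 and 0, 3 and 0, and 10 and 0 of 19 genes of the signal peptide and translocon complex were higher and lower. Ssr4, a translocon-associated protein, was higher by 0.71 (adjusted p = 0.00701), 1.29 (adjusted p = 0.000121), 0.76 (adjusted p = 0.00461) and 1.14 (adjusted p = 0.000283). Of 11 oligosaccharyltransferase genes, which attach sugars to entering chains, 5 and 1, 8 and 0, 3 and 1, and 8 and 0 were higher and lower, and of 9 genes of the glycoprotein folding cycle 4 and 0, 5 and 0, 4 and 0, and 4 and 0. In export by COPII vesicles (19 genes) the counts were 7 and 1, 8 and 2, 3 and 2, and 8 and 2, and the coat gene Sec24a was lower at -0.87 (adjusted p = 0.000541) and -1.24 (adjusted p = 1.90e-05) in WB1P and WB1P-Myc CD26- CAFs. In 18 other genes of ER-associated degradation they were 5 and 0, 5 and 0, 2 and 1, and 4 and 0. Median log2 fold changes were 0.31, 0.49, 0.15 and 0.37 for the translocon list, 0.27, 0.74, 0.27 and 0.66 for oligosaccharyltransferase, 0.41, 0.55, 0.34 and 0.44 for the folding cycle, 0.05, 0.27, -0.08 and 0.28 for COPII export and 0.24, 0.28, 0.09 and 0.26 for degradation. These lists were chosen with earlier results of the data known, and no set test was run.

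Stress genes outside the set were counted against the same background. Of 27 other genes of the integrated stress response, 2 and 3, 6 and 2, 5 and 4, and 5 and 2 were higher and lower. Their median log2 fold changes were 0.25, 0.33, 0.21 and 0.23. Ddit4, a stress gene that also answers to hypoxia and glucocorticoids, was higher by 4.13 (adjusted p = 2.49e-08), 3.09 (adjusted p = 2.11e-06), 3.90 (adjusted p = 9.62e-08) and 2.60 (adjusted p = 7.73e-06). Ppp1r15a (GADD34), which restores translation, was lower at -1.21 (adjusted p = 0.00252) and -1.26 (adjusted p = 0.00406) in WB1P CAFs. Psat1, of serine synthesis, was higher in CD26+ CAFs by 1.48 (adjusted p = 0.0101) and 1.32 (adjusted p = 0.0152). Of 12 cytosolic heat shock genes, 1 (Hspb1) was higher and 0 lower in each comparison. Of 13 immediate early genes, which tissue digestion can also raise, 1 and 4, 1 and 1, 1 and 2, and 1 and 1 were higher and lower, with Egr1 at -1.55 (adjusted p = 0.00238) and Junb at -1.09 (adjusted p = 0.000797) in WB1P CD26- CAFs, and their part in the values of Atf4 and Dnajb9 was not tested.

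**Figure D4:**
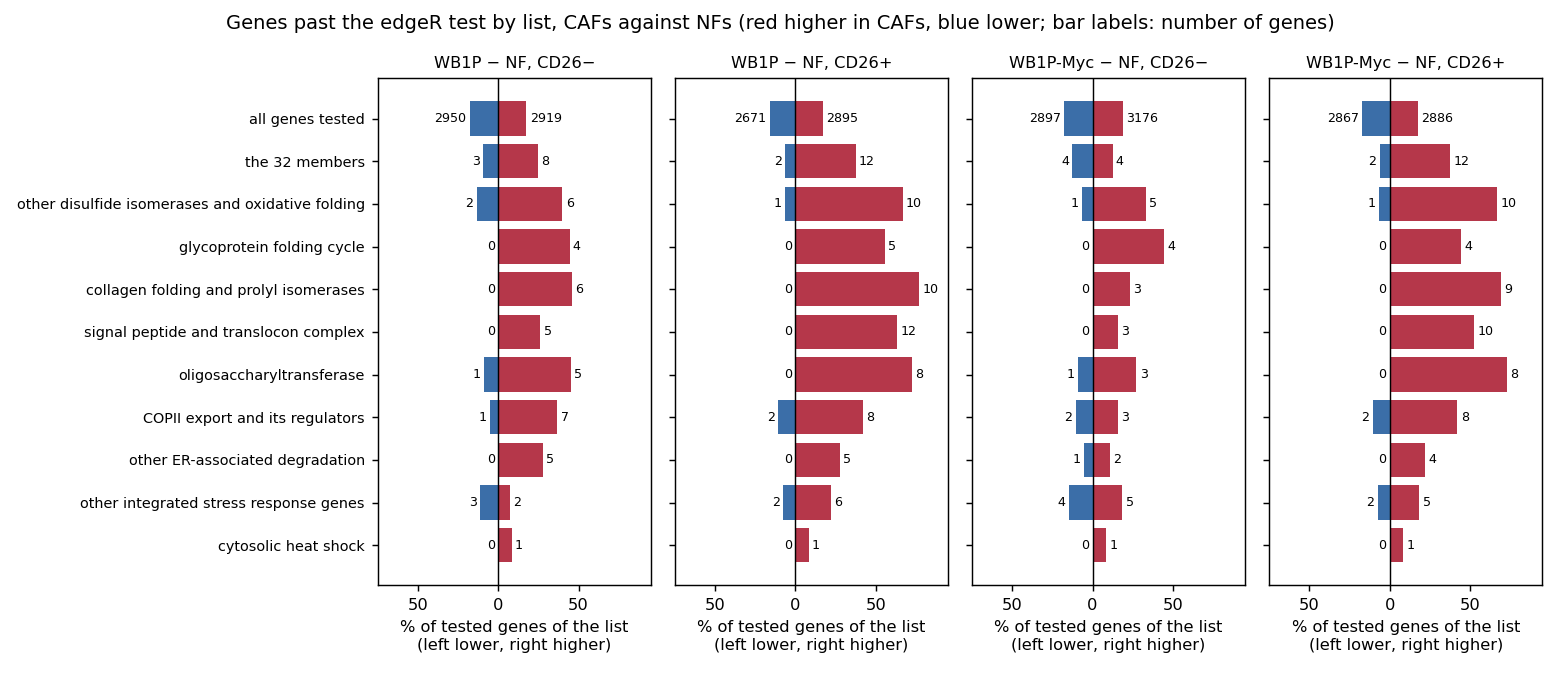
Share of the tested genes of each list (rows) that passed edgeR's test in CAFs against NFs, in percent, with higher genes to the right in red, lower genes to the left in blue and the number of genes beside each bar, for the 4 comparisons (panels). In CD26+ CAFs the bars of collagen folding, oligosaccharyltransferase and translocon genes reach far to the right (10, 8 and 12 genes in WB1P), and that of cytosolic heat shock genes stays at 1 gene.

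Pericyte markers rose with the CD26- CAFs, 7 of 7 in both tumor types, and passed as 2 higher and 1 lower in CD26+ CAFs. The lower levels of Dnajb9, Atf4 and Eif2ak3 passed in the CD26- class (Atf4 also in WB1P-Myc CD26+ CAFs). The rise of Calr, Manf and Sec61a1 passed in the CD26+ class. There the pericyte sum stayed at 169 to 393 CPM in WB1P and 155 to 310.1 CPM in WB1P-Myc. Other members passed elsewhere. Trib3 passed as lower in CD26+ CAFs of both tumor types and Ddit3 in those of WB1P. Sdf2l1 passed as higher in CD26- CAFs only, and Pdia3 and Asns in both classes. Every CD26+ CAF sum of Eif2ak3 also lay below the NFs. No member passed edgeR's test for a difference of fold changes between the classes. Proliferation markers were higher in all 4 comparisons, by 6, 6, 7 and 6 of 8 genes. Of 15 abundant secreted matrix genes, 7 and 2, 5 and 0, 2 and 2, and 4 and 0 were higher and lower in the order given above, with Col1a1 higher by 1.02 (adjusted p = 0.0105) in WB1P CD26+ CAFs and Dcn lower at -2.17 (adjusted p = 3.19e-05) in WB1P CD26- CAFs. The part of these shifts in the values of the 32 genes was not tested.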

How the data were processed

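Counts of reads per gene were deposited by the authors without normalization, from stranded poly(A) libraries of sorted fibroblasts. The submitters' processing notes name HISAT2 2.2.1 and GRCm38, and the counter, its annotation and its treatment of reads shared between gene copies were not given in the sources used here. Of 55487 lines, 1 had no identifier and held 0 counts. Counts were summed per mouse and CD26 class (25 sums) and tested with edgeR 4.0.16 and limma 3.58.1 under R 4.3.3, using filterByExpr, TMM, glmQLFit and glmQLFTest over 6 groups in 1 fit, with Benjamini-Hochberg adjustment over 16601 genes. CPM used TMM library sizes. The fit was run on simulated counts without a shared effect of mouse, which cannot show how it handles the pairing of classes. Each control label holds a pair of numbers and was taken as 1 mouse, although it may name a pool of animals. The paper counts 3 control mice.

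Members and gene lists were chosen with earlier results of these data known. Values in every mouse are given for Hspa5, Xbp1, Atf4 and Ddit3 and for up to 12 further members that passed in at least 2 of 9 comparisons, by their largest fold change. Libraries of a mouse form pairs by their labels, and deviations of both CD26 classes correlated at 0.237 to 0.668 in 12 mice. Alternatives were DESeq2 1.42.0 (Wald test and size factors), no low-count filter, a fit of only the groups compared, a fit without the 2 mice marked 8x8, an absolute log2 fold change over 2, a pseudocount of 2, mouse as a block and each mouse left out. Depth was 5790599 to 15240328 counts per library.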

Additional observations from a re-analysis of the deposited data

Results flagged for a closer look

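Among 68 groups of 4 or 5 mice, 5 held a value set apart from the rest of its group by Dixon's criterion, which chance alone gives in about 1 of 20 groups. Trib3 in WB1P CD26- CAFs was 7.25 CPM in mouse 8, against 2.32 to 3.41 CPM in the other 4 mice. Asns in WB1P-Myc CD26- CAFs was 44.0 CPM in mouse 13, against 24.4 to 30.1 CPM. Sec61b in WB1P CD26- CAFs was 65.7 CPM in mouse 5, against 55.8 to 58.3 CPM. Sdf2l1 in WB1P CD26+ CAFs was 33.1 CPM in mouse 6, against 16.3 to 18.8 CPM, and this mouse gave the smallest library. The mean log2 CPM of the 32 genes in WB1P-Myc CD26- CAFs was 6.33 in mouse 9, against 6.53 to 6.59. The 5 values belong to 5 different mice.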

How the results depend on the processing

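The counts of changed members rested on 3 control mice. Leaving out 1 mouse at a time gave 3 to 13 changed members in WB1P CD26- CAFs, 11 to 15 in WB1P CD26+, 4 to 12 in WB1P-Myc CD26- and 7 to 16 in WB1P-Myc CD26+ CAFs. The lowest came without control mouse 2 except in WB1P CD26+ CAFs (without mouse 6). In that order 25.7%, 24.6%, 27.5% and 25.1% of all genes passed at the lowest counts, and 31.6%, 36.7%, 30.6% and 37.9% at the highest. For CD26+ against CD26- cells leaving out 1 mouse gave 0 to 1 in NFs, 1 to 3 in WB1P and 1 to 3 in WB1P-Myc CAFs. The shares of all genes at the lowest counts in CAFs are given above. For the Myc comparisons and both differences of fold changes it gave 0 to 0. With a required absolute log2 fold change over 2, 0 members remained in the 6 comparisons that had any. With only the groups compared in the fit, 7 and 6 passed in WB1P CD26- and CD26+ CAFs, beside 36.5% and 19.1% of all genes. Without the 2 mice marked 8x8, 7 passed in WB1P CD26-, 5 in WB1P-Myc CD26- and 1 in the CD26 comparison of WB1P-Myc. The shares of all genes there were 33.6%, 25.8% and 12.3%. DESeq2's Wald test gave 2 in the CD26 comparison of NFs and 1 for the WB1P difference of fold changes. With mouse as a paired block these were 4 and 1, and the CD26 comparisons of WB1P and WB1P-Myc gave 7 and 6. The fits with a block ended 3 single calls (Eif2ak3, Xbp1 and Ddit3, given with their values above) and the other 50 stayed past the threshold. All 3 compared CAFs with NFs, where limma's test replaced edgeR's, so block and test cannot be told apart. Of 1007 values of the 53 calls under 19 alternatives, 878 stayed past the threshold, 129 did not and 0 changed direction, with 21 lost without control mouse 2, 14 without control mouse 3, 17 with only the groups compared and 0 in DESeq2's Wald test. The causes of these shifts were not tested. The differences of the list mean moved by less than 1 SD between mice with a pseudocount of 2 or with DESeq2's size factors. Trib3, Chac1 and Derl3 are the members that depth limits most.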
